A study of Homo sapiens with 9 samples.

Results

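The antiviral effector genes of the interferon response were examined for accessible chromatin in HEK293T, a cell line derived from embryonic kidney, after loss of each of the RNA-binding proteins IGF2BP1, IGF2BP2 and IGF2BP3. The set was chosen by name and holds 46 of the 20037 protein-coding genes placed on GRCh38.p14 by RefSeq. It covers the IFIT, IFITM, GBP, PARP, TRIM and SAMD9 families (22 genes, with DTX3L counted beside its partner PARP9) and 24 further effectors. A gene was called open in a list when at least 1 bp of a peak lay in the gene or within 1 kb of either end, and closed otherwise.

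The accessible sites were measured by ATAC-seq, in which a transposase cuts and tags exposed DNA. The 4 groups were untreated cells labelled by genotype, and they also differed in clone, number of libraries and batch. The control came from a guide with no mammalian target (2 libraries, batches 2 and 3). The IGF2BP1 knockout had 3 libraries (batches 1, 2 and 3), and the knockouts of IGF2BP2 and of IGF2BP3 had 2 libraries each (batches 2 and 3). Each knockout was 1 sorted clone, made with a non-integrating plasmid carrying 3 guides, so genotype and clone cannot be told apart.

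The authors deposited 1 list of peak positions per group, with no height or score and no values for single libraries. There was therefore no spread between replicates to set a difference against, no test was made, and the read depth was unknown. Everything below describes these 4 lists, and all knockouts share 1 control list. Where 4 widths are given in a row, the order is the control and then the knockouts of IGF2BP1, IGF2BP2 and IGF2BP3. The lists held 39194 (control), 50917 (IGF2BP1 knockout), 60262 (IGF2BP2 knockout) and 44041 peaks (IGF2BP3 knockout), so a longer list has more chances to open a gene. Of 7 genes that mark HEK293T or epithelial cells, 6 or 7 had a start peak in each list. Of the blood cell markers, SPI1 had one in all lists and CD3E in the IGF2BP1 knockout, while PTPRC, CD3D, CD14 and LYZ had none at the start in any list. Of 3 liver markers 1 did (APOA1).

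Interferons bind receptors whose JAK kinases activate a transcription factor complex that contains STAT2 and IRF9 and binds the interferon-stimulated response element in the promoters of effector genes. The effectors then act at separate steps of infection: IFITM proteins block membrane fusion, IFIT proteins bind foreign RNA, MX proteins trap viral nucleocapsids, and guanylate-binding proteins (GBP) coat pathogen compartments. Many of these genes are nearly silent until interferon arrives, and a promoter can be accessible before it is transcribed. A peak marks exposed DNA and does not measure transcription.

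Promoter sequences of some members are shown with the element that many interferon-stimulated genes carry. Capitals mark GAAA, any 2 bases and GAAA again, on either strand, which is the core of the interferon-stimulated response element. All are from RefSeq (GRCh38.p14), read 5′ to 3′ along the gene, and end at the base before the listed start or, where a match spans the start, at the end of the match. The first 3 genes were open at the start in all 4 lists.
DDX60, chr4:168318753-168318870, minus strand: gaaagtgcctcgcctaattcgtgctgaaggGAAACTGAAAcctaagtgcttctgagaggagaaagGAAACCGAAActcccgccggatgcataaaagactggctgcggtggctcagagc
DTX3L, chr3:122564238-122564341, plus strand: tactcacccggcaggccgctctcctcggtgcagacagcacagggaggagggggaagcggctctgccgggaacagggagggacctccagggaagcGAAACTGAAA
EPSTI1, chr13:42992242-42992341, minus strand: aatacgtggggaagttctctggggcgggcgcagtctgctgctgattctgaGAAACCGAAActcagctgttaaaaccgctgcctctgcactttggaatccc
The next 3 genes carry the same element and were closed at the start in all 4 lists.
BST2, chr19:17405631-17405790, minus strand: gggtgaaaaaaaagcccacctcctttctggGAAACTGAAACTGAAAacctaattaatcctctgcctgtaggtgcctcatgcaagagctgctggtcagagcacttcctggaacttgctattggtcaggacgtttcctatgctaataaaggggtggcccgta
DDX60L, chr4:168480493-168480602, minus strand: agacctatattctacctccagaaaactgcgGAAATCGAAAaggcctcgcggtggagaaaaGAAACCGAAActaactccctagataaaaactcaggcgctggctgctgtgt
GBP4, chr1:89198937-89199042, minus strand: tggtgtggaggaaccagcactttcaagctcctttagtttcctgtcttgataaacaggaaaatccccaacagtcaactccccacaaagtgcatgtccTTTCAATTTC
The last 5 were chosen after their values were seen. IFIT1 was open in every list, GBP1, SP110 and IFI44L differed between lists, and RSAD2 was closed at this, the downstream of its listed starts. The SP110 stretch holds no match and has no capitals.
IFIT1, chr10:89392477-89392622, plus strand: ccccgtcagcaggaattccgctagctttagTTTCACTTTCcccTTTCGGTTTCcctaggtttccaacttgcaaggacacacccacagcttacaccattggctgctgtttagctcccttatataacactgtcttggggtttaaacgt
GBP1, chr1:89065209-89065365, minus strand: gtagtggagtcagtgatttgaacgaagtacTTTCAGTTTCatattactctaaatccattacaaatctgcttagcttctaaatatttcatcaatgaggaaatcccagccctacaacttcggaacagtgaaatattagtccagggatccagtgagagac
SP110 (downstream start), chr2:230219985-230220114, minus strand: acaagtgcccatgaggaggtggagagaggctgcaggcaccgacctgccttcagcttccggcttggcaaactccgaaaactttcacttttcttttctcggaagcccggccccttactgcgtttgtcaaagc
IFI44L, chr1:78620254-78620447, plus strand: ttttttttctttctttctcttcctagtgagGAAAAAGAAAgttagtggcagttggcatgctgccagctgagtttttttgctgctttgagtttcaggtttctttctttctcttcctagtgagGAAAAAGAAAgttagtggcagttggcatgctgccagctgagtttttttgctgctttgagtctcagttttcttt
RSAD2 (downstream start), chr2:6877602-6877776, plus strand: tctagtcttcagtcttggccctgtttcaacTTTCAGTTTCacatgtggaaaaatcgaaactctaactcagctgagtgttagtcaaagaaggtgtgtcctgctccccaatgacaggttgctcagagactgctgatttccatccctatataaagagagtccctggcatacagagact

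Most of these genes were open in untreated cells of every genotype. Of the 46 members, 30 (65.2%) were open in all 4 lists, 8 (17.4%) were closed in all, and 8 (17.4%) differed. Among all protein-coding genes the shares were 73.6%, 18.1% and 8.29%. A long gene gathers peaks far from its promoter, so a stricter class was formed from peaks within 1 kb of a listed start. RefSeq promoter entries were matched for 40 members; for IFIT2, IFITM2, GBP2, GBP5, MX2 and TRIM22 a peak within 1 kb of either gene end was used. At the start, 25 members (54.3%) were open in all lists, 14 (30.4%) were closed in all and 7 (15.2%) differed. The corresponding shares over all protein-coding genes were 64.2%, 29% and 6.75%. By gene length, 10 of 12 members under 10 kb were open in all lists over the whole gene (83.3%, against 50.1% of such genes), 14 of 25 between 10 and 50 kb (56%, against 76.9%) and 6 of 9 at 50 kb or longer (66.7%, against 90.7%). Short members were thus open more often than genes of their length, and longer ones less often, as counts with no test. In single lists, 28 members were open at the start in the control, 28 in the IGF2BP1 knockout, 31 in the IGF2BP2 knockout and 29 in the IGF2BP3 knockout.

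**Figure D1:**
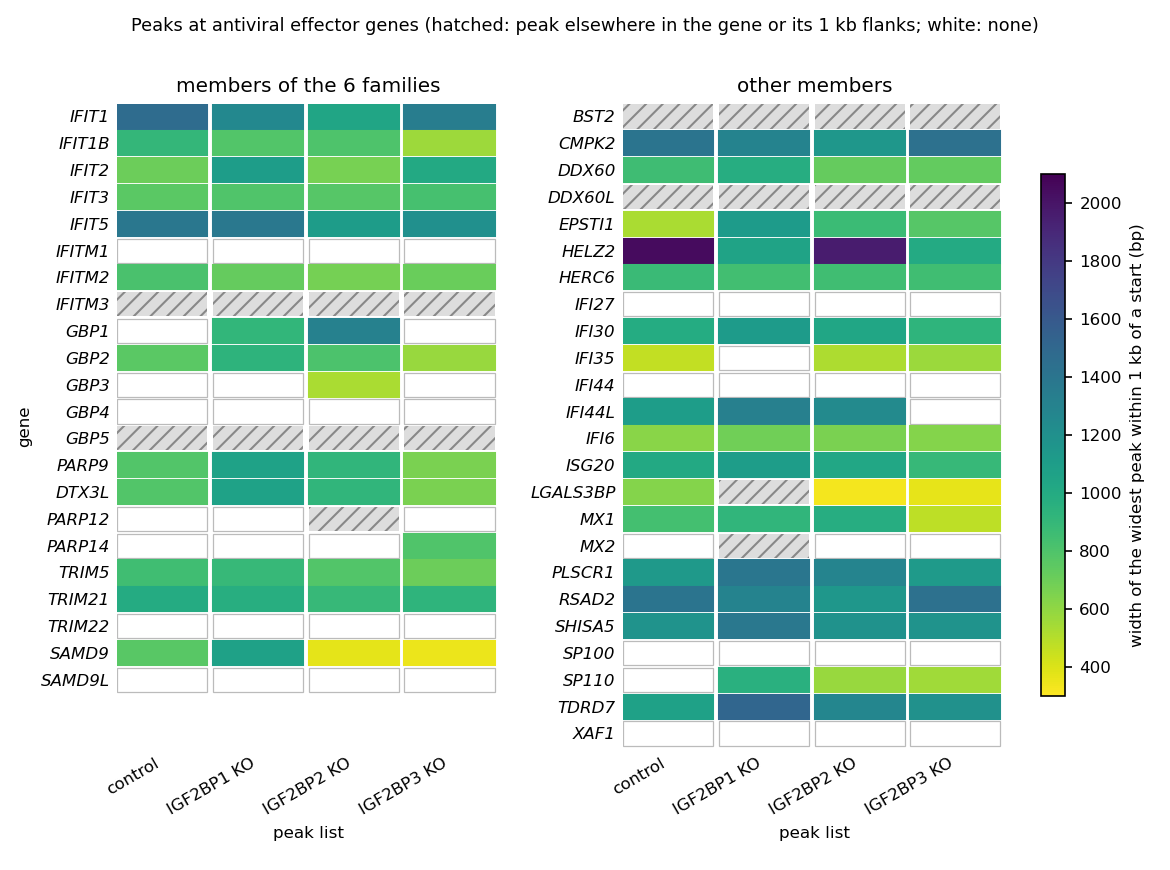
Grid of the 46 genes (rows) by the 4 peak lists (columns), with colour giving the width in bp of the widest peak within 1 kb of a start, hatching a peak elsewhere in the gene or its 1 kb flanks, and white no peak. The IFIT rows are filled across all lists, whereas GBP rows are filled in 1 to 3 of 5 genes, with most in the IGF2BP2 knockout.

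The IFIT genes, a chromosome 10 cluster whose products bind RNA with foreign 5′ ends, formed the family that was most open. All 5 had a start peak in all 4 lists. IFIT1 had peaks of 1468, 1257, 1039 and 1343 bp, the widest of them in the control (chr10:89391806-89393273, from -817 to 650 bp relative to the start). IFIT5 had 1384, 1379, 1112 and 1207 bp in a peak that also held the start of LIPA, a lysosomal lipase gene, so it cannot be given to IFIT5 alone. The peak at IFIT3 barely moved, at 762, 796, 775 and 828 bp. IFIT2 had 707, 1103, 666 and 1013 bp, wider in the knockouts of IGF2BP1 and IGF2BP3 than in the other lists. IFIT1B, a paralogue of IFIT1, had 911, 791, 800 and 563 bp, and its peak lay mostly downstream of the start (from -24 to 886 bp in the control). In the knockouts of IGF2BP2 and IGF2BP3 it began 70 and 103 bp after the start. With a window from 250 bases before to 50 after the start, IFIT1B was no longer open in all lists. At IFIT3 the peak stood at the upstream of 2 listed starts, and the downstream one, 4532 bp further on, was closed in all lists.

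The IFITM genes encode small membrane proteins that stop enveloped viruses from fusing, and lie side by side on chromosome 11. IFITM2 was open with 815 bp in the control and 722, 674 and 710 bp in the knockouts of IGF2BP1, IGF2BP2 and IGF2BP3. IFITM1 was closed in every list, with the nearest peak 2.52 to 3.04 kb from the gene. IFITM3 counted as open through a peak 175 to 319 bp beyond its 3′ end (1163, 1315, 1043 and 1332 bp), while its start had none. Of the family, 1 gene of 3 (IFITM2) thus counted as open at the start, in all lists. IFITM2 had no listed start and is 1580 bp long, so 1 kb around either end covers the whole gene. Its start class could therefore not differ from its class over the gene, unlike those of IFITM1 and IFITM3, which have listed starts.

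The GBP genes, interferon-inducible GTPases clustered on chromosome 1, were the family with the most genes, 2 of 5, whose start differed between lists. GBP1, which starts coat assembly on pathogen membranes, had no peak in the control or the IGF2BP3 knockout and the nearest were 39295 and 39379 bp away. It had a peak of 912 bp in the IGF2BP1 knockout (chr1:89064299-89065210, from -2 to 909 bp relative to the start). The IGF2BP2 knockout peak was wider, 1315 bp (chr1:89064051-89065365, from -157 to 1157 bp), and stood at percentile 91.9 of that list's widths. Of 4159 genes with a start peak at least that wide in the IGF2BP2 knockout, 15 (0.361%) had none in the control. At the width in the IGF2BP1 knockout it was 200 of 11622 (1.72%). Such shares, here and below, take in all wider peaks, so they are not rates for peaks of that width alone. The response element shown for GBP1 lay inside the IGF2BP2 knockout peak and outside that of the IGF2BP1 knockout.

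GBP3 had a start peak of 525 bp in the IGF2BP2 knockout and none in the other lists. Of genes with a start peak at least that wide there, 2.55% had none in the control. At GBP2, a peak outside the lower-coordinate end was in all lists (759, 938, 755 and 579 bp), and one of 808 bp at the other end was in the IGF2BP2 knockout alone. The former lay 871, 687 and 967 bp from the gene in the control and the knockouts of IGF2BP1 and IGF2BP3, so only its edge entered the 1 kb window. GBP2 had no listed start, so by the rule of either end it counted as open at the start in all lists. Without flanks, or with 200 bp asked for in the window, GBP2 was no longer open in all lists. If its start is at the higher-coordinate end, only the IGF2BP2 knockout had a peak there, and the GBP2 start would differ between lists too. GBP5 had none at either end, but peaks inside the gene: 1 of 447, 910, 566 and 398 bp in all lists, and 1 of 707, 1313 and 896 bp missing from the IGF2BP3 knockout. GBP4 was closed throughout, with no peak within 54.6 kb. The IGF2BP2 knockout, the longest list, thus had a peak at an end of GBP1, GBP2 and GBP3 that the control lacked. With each list trimmed to its 39194 widest peaks, GBP3 was closed in all. Regions held by the IGF2BP2 knockout alone made up 10% of member regions and 15.2% of all merged regions, which include sites outside genes.

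Of the PARP genes, which encode ADP-ribosyltransferases, PARP9 and its ubiquitin ligase partner DTX3L share 1 start peak on chromosome 3. The genes lie on opposite strands and overlap at their starts. Their shared peak measured 790, 1062, 924 and 659 bp, narrowest in the IGF2BP3 knockout. PARP12 had no start peak in any list and a peak of 521 bp 20.8 kb inside the gene in the IGF2BP2 knockout. PARP14 differed only by the edge of the window. Its peak lay 826 bp from the gene in the IGF2BP3 knockout (795 bp wide) and 1019, 1019 and 1092 bp from it in the control (872 bp) and the knockouts of IGF2BP1 (828 bp) and IGF2BP2 (767 bp). All 4 lists thus held a peak beside PARP14, on one side or the other of the 1 kb limit.

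TRIM5, a retroviral capsid sensor, had start peaks of 852, 892, 787 and 702 bp. TRIM21, a cytosolic antibody receptor, had 998, 972, 891 and 930 bp. Both were open in every list, with little spread. TRIM22, a neighbour of TRIM5, was closed, with the nearest peak 4.41 to 4.43 kb away. The SAMD9 pair on chromosome 7, which restricts poxviruses, divided likewise. SAMD9L was closed in all lists. SAMD9 was open with 769, 1067, 375 and 354 bp. The control and IGF2BP1 knockout peaks crossed its start, and the other 2 ended 20 and 25 bp before it. These narrow peaks were lost, and SAMD9 was closed in both lists, when each list was trimmed to its 39194 widest peaks.

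Outside these families, 13 of 24 genes were open at the start in all lists. By the mean width over the lists, HELZ2, a helicase coactivator, had the widest start peaks, with 2048 bp in the control and 1961 bp in the IGF2BP2 knockout against 1059 and 1008 bp in the knockouts of IGF2BP1 and IGF2BP3. The latter lists broke the same stretch into separate peaks, and joining peaks within 500 bp gave 2048, 2001, 1961 and 2001 bp. The next widest mean belonged to the peak shared by CMPK2, a mitochondrial nucleotide kinase, and RSAD2, which encodes the antiviral enzyme viperin, with 1408, 1294, 1149 and 1434 bp. RSAD2 was open through this peak alone, and its downstream listed start, 11892 bp away, had none in any list. The narrowest means belonged to IFI6, an inhibitor of flavivirus replication (619, 691, 660 and 633 bp), MX1 (840, 924, 975 and 482 bp) and the helicase gene DDX60 (858, 975, 723 and 731 bp). MX1 was open at the upstream of 3 listed starts, and the others had no peak in any list. HERC6, of the HERC ubiquitin ligase family, had nearly constant peaks of 878, 844, 849 and 849 bp.

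The remaining genes open at the start in all lists were EPSTI1, IFI30 (a lysosomal thiol reductase), ISG20 (an exonuclease), PLSCR1 (a phospholipid scramblase), SHISA5 and TDRD7. TDRD7 had 1069, 1510, 1273 and 1194 bp, PLSCR1 1136, 1391, 1286 and 1125 bp, and SHISA5 1178, 1376, 1182 and 1177 bp. These SHISA5 widths are of the wider of its start peaks, at the downstream listed start, 31652 bp from the first. The peak at its first start had 1112, 1106, 744 and 1097 bp. ISG20 had 1013, 1105, 1029 and 896 bp and IFI30 995, 1120, 1036 and 928 bp. By the widest start peak of each gene, the IGF2BP1 knockout was the widest list in these 5, though not at the first start of SHISA5. Over all protein-coding genes the median start peak was widest in that list too, with 1147, 1252, 1111 and 1135 bp. Closed in all lists, flanks included, were IFI27, IFI44, SP100 and XAF1, with IFITM1, GBP4, TRIM22 and SAMD9L of the families. The distance from these 8 genes to the nearest peak ran from 2.52 kb (IFITM1) to 63.0 kb (GBP4). BST2, which encodes the virion tether tetherin, was closed at the start and open through a peak inside the gene (743, 698, 818 and 874 bp). DDX60L, the neighbour of DDX60, was closed at the start too and had 1 internal peak in all lists (373, 482, 460 and 311 bp). MX2, an inhibitor of HIV-1 nuclear entry, had 1 peak of 529 bp inside the gene in the IGF2BP1 knockout alone.

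Among starts that differed, SP110 was open in every knockout and closed in the control. SP110 encodes a nuclear body protein. The peak stood at its downstream start, 5652 bp into the gene, with widths of 954, 577 and 560 bp in the knockouts of IGF2BP1 (chr2:230219612-230220565), IGF2BP2 (chr2:230219647-230220223) and IGF2BP3 (chr2:230219725-230220284). The nearest control peak was 4439 bp outside the gene. Of genes with start peaks at least as wide in those knockouts, 1.65%, 2.24% and 2.17% had none in the control. A start peak in all 3 knockouts and not the control was found at 221 of all protein-coding genes (1.1%) and at 1 of the 46 members. On chromosome 2, which holds SP110, 12.0%, 12.9% and 4.68% of starts closed in the control were open in the knockouts of IGF2BP1, IGF2BP2 and IGF2BP3, against 8.05%, 8.47% and 6.85% on the other chromosomes.

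IFI44L, an interferon-induced gene often read as a marker of interferon exposure, had no peak in the IGF2BP3 knockout. The other lists had 1102 bp (control, chr1:78619552-78620653), 1321 bp (IGF2BP1 knockout) and 1245 bp (IGF2BP2 knockout), at percentiles 76.5 to 89.9 of those lists. In the IGF2BP3 knockout the nearest peak lay 2456 bp from the gene. Of 7378 genes with a control start peak at least as wide, 42 (0.569%) had none in the IGF2BP3 knockout. Both copies of the response element shown for IFI44L lay inside the peak in the lists that had one.

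IFI35 and LGALS3BP, both on chromosome 17, were closed at the start in the IGF2BP1 knockout alone. IFI35, whose product binds the interferon-induced protein NMI, had narrow peaks of 465, 522 and 573 bp in the remaining lists. LGALS3BP, a secreted galectin ligand, had 635, 333 and 364 bp there, the last 2 at percentiles 5.84 and 7.08 of their lists. With each list trimmed to its 39194 widest peaks, the start of IFI35 was closed in the IGF2BP2 knockout too, and that of LGALS3BP in all knockouts. The IGF2BP1 knockout had 2 peaks inside LGALS3BP instead (945 and 485 bp), and the IGF2BP2 knockout had peaks at the same places (598 and 600 bp). Chromosome 17 held 4.74% of control peaks and 3.52% of those of the IGF2BP1 knockout. Of its 784 genes with a control start peak, 18 (2.30%) had none in that knockout, against 0.947% on the other chromosomes. Of all genes with control start peaks at least as wide as that of IFI35 or of LGALS3BP, 0.773% and 0.497% had none there. For IFI35 this took in 13203 of the 13344 genes with a control start peak, so the share does not describe peaks as narrow as its own. The part of the chromosome in these losses was not tested.

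**Figure D2:**
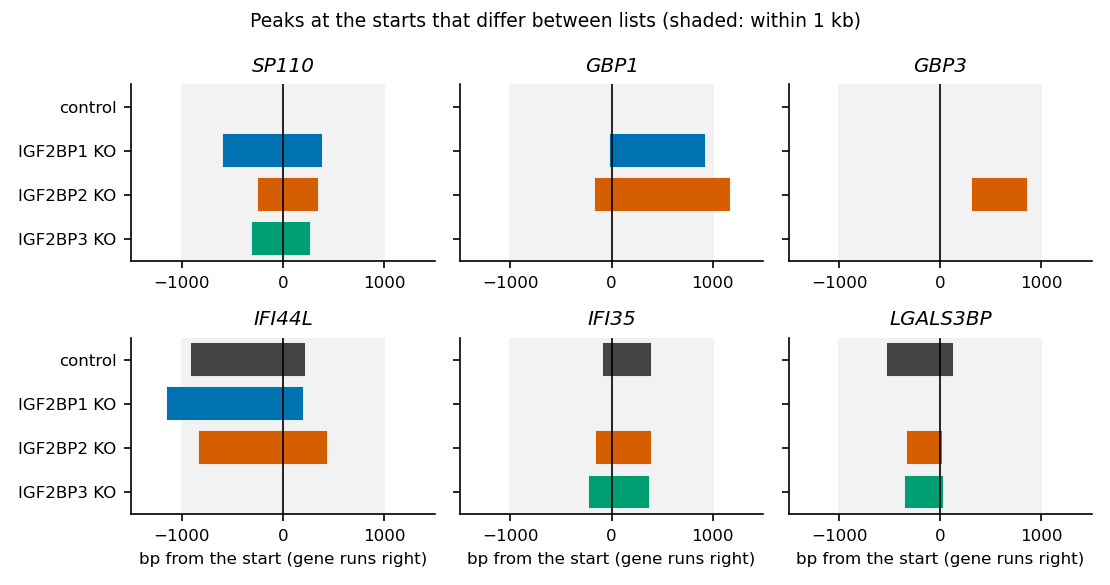
Peaks (bars) in the 4 lists at 6 starts that differ, by distance in bp from the start, with the gene running to the right and the shaded band marking 1 kb on either side. SP110 lacks a bar in the control, GBP1 has bars in the knockouts of IGF2BP1 and IGF2BP2, GBP3 in that of IGF2BP2, and IFI44L lacks one in the IGF2BP3 knockout, IFI35 and LGALS3BP in that of IGF2BP1.

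Set against the control over the whole gene with flanks, the IGF2BP1 knockout gained GBP1, MX2 and SP110 (3 genes, 6.52%) and lost IFI35 (1 gene, 2.17%). Over all protein-coding genes it gained 3.71% and lost 0.769%. The IGF2BP2 knockout gained GBP1, GBP3, PARP12 and SP110 (4 genes, 8.70%) and lost 0, against 4.39% and 0.903% of all genes. With each list trimmed to its 39194 widest peaks, MX2, GBP3 and PARP12 were closed in all lists, so their gains were not kept. The IGF2BP3 knockout gained PARP14 and SP110 (2 genes, 4.35%) and lost IFI44L (1 gene, 2.17%), against 2.83% and 1.71%. At the start, the gains were 2, 3 and 2 genes (all-gene shares 2.75%, 2.9% and 2.25%) and the losses 2, 0 and 1 (0.684%, 1.31% and 1.39%). These counts rest on at most 4 genes, and 1 gene moves a member share by 2.17 percentage points, so they do not set the members apart from other genes.

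Peaks elsewhere in the genes were shared by fewer lists than those at starts. Overlapping peaks of the 4 lists merged into 60 regions at the members, 32 at a start and 28 elsewhere. Of those at starts, 25 were held by all 4 lists, and of those elsewhere 6. The split was not made for the regions of all genes, so it is not read as particular to the members. Of all protein-coding genes, 12865 were open at the start in all lists and 1353 differed there. In all, 31 of the 60 member regions (51.7%) were in all 4 lists, against 41.5% of all merged regions of the series. The latter include sites outside genes and their flanks, so these shares and the next are of unlike sets. Another 3 member regions (5%) were held by every knockout list but absent from the control, against 6.88%, and 1 (1.67%) was in the control alone, against 1.98%. Besides SP110, these 3 were an internal site of DDX60, 13.8 kb from its start (741, 649 and 396 bp in the knockouts of IGF2BP1, IGF2BP2 and IGF2BP3), and one of TDRD7, 56.7 kb from its start (607, 517 and 348 bp). The region in the control alone was inside EPSTI1 (759 bp). In DDX60L, the IGF2BP2 knockout held 5 internal regions, of which the control held 1.

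The width of the widest start peak of a gene was compared where both lists had one. Where a gene has several, the peaks compared need not be at the same place. At GBP2, the 808 bp peak of the IGF2BP2 knockout at the higher-coordinate end was set against the 759 bp control peak at the other end. Members had narrower start peaks than genes at large, with medians of 868, 1062, 891 and 795 bp in the control and the knockouts of IGF2BP1, IGF2BP2 and IGF2BP3, against 1147, 1252, 1111 and 1135 bp. The log2 ratio of knockout to control width had a median of 0.15 over 26 members in the IGF2BP1 knockout, against 0.10 over all genes. It was -0.02 over 28 members in the IGF2BP2 knockout, against -0.01. In the IGF2BP3 knockout it was -0.13 over 27 members, of which 19 were narrower than in the control, against -0.00 over all genes. CMPK2 with RSAD2, and DTX3L with PARP9, share 1 peak each, so these 27 members have 25 distinct peaks, of which 18 were narrower.

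EPSTI1, a gene on chromosome 13 that is induced by interferon, widened from 530 bp in the control to 1121, 876 and 772 bp in the knockouts of IGF2BP1, IGF2BP2 and IGF2BP3. Its log2 ratios were 1.08, 0.72 and 0.54, the highest of the members in each list. Of 25 members open at the start in all lists, EPSTI1, IFI6, IFIT3 and TDRD7 (16%) were wider in every knockout, against 28.7% of all genes open in all lists. Narrower in every knockout were HELZ2, HERC6, IFIT1, IFIT1B, IFIT5, IFITM2 and TRIM21 (28%, against 15.1%), 3 of them from the IFIT cluster. The size of the shift varied: HERC6 lay between -0.06 and -0.05 and TRIM21 between -0.16 and -0.04, whereas IFIT1 had -0.22, -0.50 and -0.13, and IFIT1B had -0.20, -0.19 and -0.69. HELZ2 had -0.95, -0.06 and -1.02, through the split described above. Because each ratio uses the same control peak, a control peak that happens to be narrow or wide moves all 3 together.

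**Figure D3:**
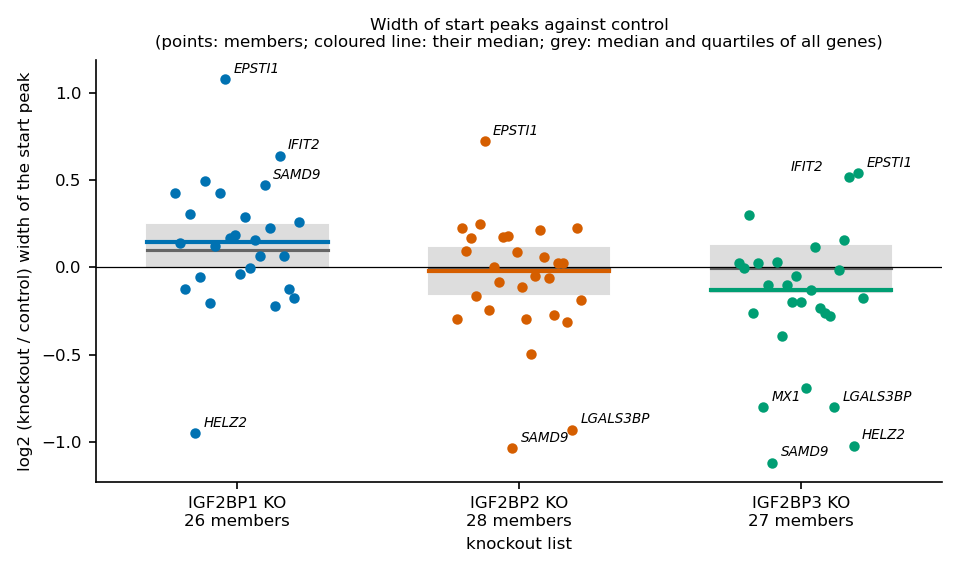
Log2 ratio of knockout to control width of the widest start peak (vertical axis) for each knockout list, with points for members, a coloured line for their median, and grey for the median and quartiles of all protein-coding genes. EPSTI1 tops each column, at 1.08, 0.72 and 0.54, and SAMD9 lies at 0.47, -1.04 and -1.12.

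The core of the response element had a similar share in members of each start class. Of 40 members with promoter windows (250 bases before to 50 after each listed start), 29 (72.5%) held GAAA, any 2 bases and GAAA on either strand, against 4.16% of 15843 protein-coding genes. Members are known interferon-stimulated genes, so this share describes the choice of the set. Within it, the element was in 16 of 22 members open at the start in all lists (72.7%), 5 of 7 that differed (71.4%) and 8 of 11 that were closed (72.7%). Class and match were joined by gene and not by start. RSAD2 thus counted as open with the element, although its match lay at its closed downstream start. A longer form, with CT after the core, gave other shares: 9 of 22 open (40.9%), 0 of 7 differing and 6 of 11 closed members (54.5%). Over all protein-coding genes, 58.0% of those with the element and 67.2% of those without it were open at the start in all lists.

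The 29 members held 46 matches, counting overlapping ones, and 13 members held at least 2. A peak of all 4 lists covered 23 matches, a peak of no list 19, and 4 lay in peaks of some lists: 2 at IFI44L and 1 each at LGALS3BP and GBP1. DDX60 and DDX60L show the same arrangement with opposite states. Matches began 88 and 53 bases before the start of DDX60, inside peaks of all lists, and 80 and 50 bases before that of DDX60L, inside none. At IFIT3, matches before the upstream start were covered in all lists, and those before the downstream start in none. RSAD2 held its match at the downstream start, and MX1 held 1 match 11 bases after the upstream start, which was covered, and 1 at the most downstream start, which was not. A match is a description of these letters and does not show that a factor was bound.

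**Figure D4:**
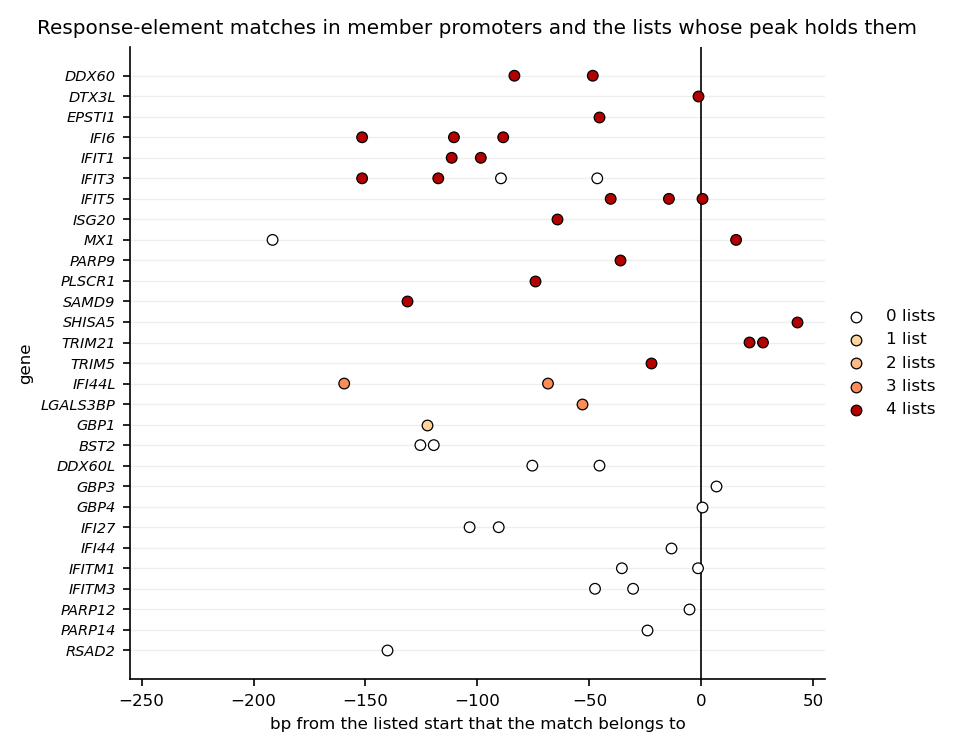
Position of each match (horizontal axis, bp from the listed start it belongs to) for the 29 genes that hold one (rows), with the fill giving how many of the 4 lists had a peak over it. Dark points, covered in all lists, number 23, and open points, covered in none, 19.

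The median CpG content was higher in the open class than in the others. The ratio of observed to expected CpG was computed in the promoter window, taking the highest where a gene has several. Its median was 0.602 in the 22 members open at the start in all lists, 0.269 in the 7 that differed and 0.290 in the 11 that were closed. Over all protein-coding genes the medians were 0.875, 0.620 and 0.284. TDRD7 (1.11), RSAD2 (1.06) and CMPK2 (0.98) had the highest values and were open. IFI44L, IFI44, GBP3 and SAMD9L had no CpG at all and were closed in at least 1 list.

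Some members went against this order. IFIT1B (0.07), IFIT1 (0.26), SHISA5 (0.27) and TRIM21 (0.29) were open in all lists at low CpG, and PARP12 (0.92) and DDX60L (0.74) were closed at high CpG. Below a ratio of 0.2, 1 of 8 members was open in all lists (12.5%), against 4.22% of 1683 protein-coding genes. Between ratios of 0.2 and 0.4, 5 of 12 members were open in all lists (41.7%), against 13.5% of 1795 protein-coding genes. Between 0.4 and 0.6 it was 5 of 6 (83.3%), against 41.8% of 1232, and between 0.6 and 0.8 it was 6 of 8 (75%), against 80.1% of 3242. At 0.8 and above, 5 of 6 members (83.3%) and 90.7% of all genes were open.

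**Figure D5:**
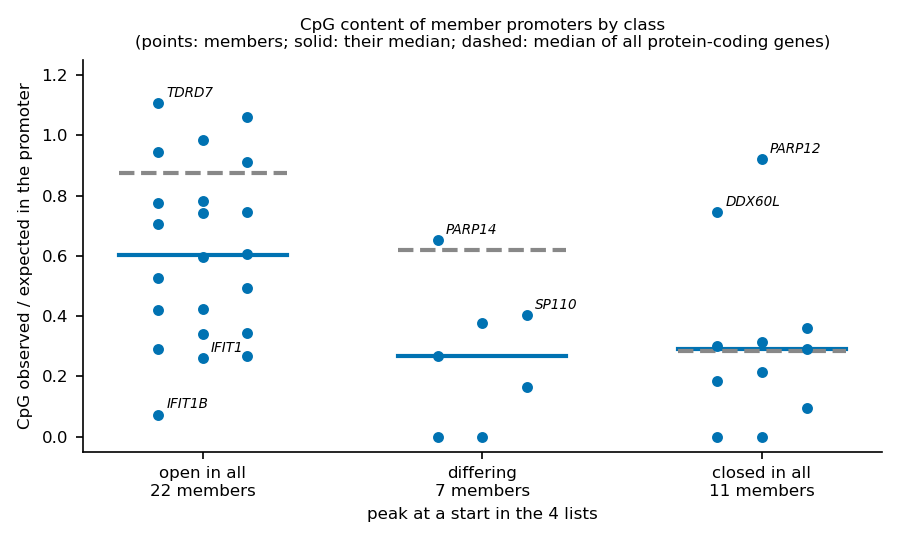
Observed over expected CpG in the promoter (vertical axis) of 40 members by start class, with points for genes, solid lines for member medians and dashed lines for the medians of all protein-coding genes. Open members have a median of 0.602 and closed ones 0.290, with PARP12 and DDX60L high among the closed and IFIT1B low among the open.

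Genes that sense and relay interferon, and other induced genes outside the set, were read in the same way. Of 40 such genes, 31 (77.5%, against 64.2% of all protein-coding genes) were open at the start in all lists, 6 (15%) were closed in all and 3 (7.5%) differed. Among receptor and relay genes, IFNAR1, IFNAR2, JAK1, TYK2, STAT2 and IRF9 had start peaks in all lists. ISG15, the ubiquitin-like modifier, had start peaks in the knockouts of IGF2BP2 (898 bp) and IGF2BP3 (539 bp) alone. OAS3, an activator of RNase L, had them in those of IGF2BP1 (836 bp) and IGF2BP3 (602 bp). IRF7, the amplifier of type I interferon, had 626 bp in the control and 815 and 378 bp in the knockouts of IGF2BP1 and IGF2BP3, and none in that of IGF2BP2. OAS1, OAS2, ZBP1, UBA7, RTP4 and CXCL10 were closed.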

How the data were processed

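Per the labels' protocols, 9 ATAC-seq libraries of HEK293T cells in 4 groups were made with Omni-ATAC lysis and transposition and bead purification. The submitters' processing notes name fastp 0.24.1, BWA 0.7.17, MACS2 3.0.0, bedtools and GRCh38, with no role or order. How libraries were combined, the peak threshold and the transposase offset are not given in the sources used here. The authors deposited 1 list per group of peak start and end positions, without score or signal, and read depth is unknown.

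Gene positions came from RefSeq (GRCh38.p14) and starts from its promoter table, with either gene end used for genes without an entry. Peak positions were counted from 1. Overlaps, classes, widths, motif matches and CpG ratios were computed in Python 3.11.15 with pandas 2.3.3 and numpy 2.4.6 and tested on simulated data with known answers. With 1 list per group no test was possible. All protein-coding genes served as background. The widths of the widest start peaks were compared as log2 ratios.

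The members and lists were chosen with earlier results of these data known. The rule for naming was to name all members by class and give values in every list for members whose class differs, for all members of the 6 families, and for the 3 widest and 3 narrowest other genes open at the start in all lists. Promoter sequence was shown for the first 3 open and first 3 closed members with a response element, by symbol. Marker lists were VIM, KRT8, KRT18, CDH2, PAX2, LIN28B and IGF2BP1 for HEK293T or epithelial cells, PTPRC, SPI1, CD3E, CD3D, CD14 and LYZ for blood, and ALB, APOA1 and TTR for liver; some listed genes are not reported here. Alternatives changed the flank, the overlap, the peaks kept, the width measure, the motif and the CpG measure.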

Additional observations from a re-analysis of the deposited data

Results flagged for a closer look

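The SAMD9 start peak was singled out because it was wider than the control peak by more than a set factor in 1 knockout and narrower by more than that factor in others. Its log2 width ratio to the control was 0.47 in the IGF2BP1 knockout, -1.04 in the IGF2BP2 knockout and -1.12 in the IGF2BP3 knockout. The difference between the knockouts was not tested, since each is 1 list. With lists trimmed to their 39194 widest peaks, SAMD9 had no start peak in the knockouts of IGF2BP2 and IGF2BP3.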

How the results depend on the processing

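No paired analysis was possible because each group has 1 list and no values per library, and for the same reason no replicate could be left out. Of 87 values recomputed under an alternative, 69 stayed within 1.5 times the main count or share or, for differences in width and CpG, kept their sign. A kept sign did not mean a kept size. With summed widths, the member median minus the all-gene median went from -0.02 to -0.05 in the IGF2BP2 knockout and from 0.05 to 0.03 in that of IGF2BP1. Leaving out peaks under 300 bp changed no class. Without flanks, the IGF2BP2 knockout lost 1 member and the IGF2BP3 knockout gained 1 and lost 2. With a 5 kb flank, 5 members differed and 5 were closed in all lists, with 0 gains and 0 losses for the IGF2BP3 knockout, and SP110, IFI44L and PARP14 counted as open in all. With gene ends alone, 5 members differed, 14 were closed, and the gains were 1, 2 and 1 in the knockouts of IGF2BP1, IGF2BP2 and IGF2BP3, and SP110, whose peak lies at its downstream start, counted as closed. Asking for 200 bp in the window left the IGF2BP3 knockout with 1 gain, without PARP14. GBP2 left the class open in all lists under that setting and without flanks. When lists were trimmed to their 39194 widest peaks, there were 2 gains and 2 losses for the IGF2BP2 knockout and 4 losses for that of IGF2BP3. IFI35 was then closed at the start in the IGF2BP2 knockout as well, LGALS3BP in every knockout, and SAMD9 in those of IGF2BP2 and IGF2BP3. GBP3, PARP12 and MX2 were then closed in all lists, flanks included. Counting shared start peaks once, chosen after seeing the data, left the member median log2 width ratios at 0.15, -0.02 and -0.13. As a percentile of the list's widths, the member median minus the all-gene median was 4.57 points in the IGF2BP2 knockout, where the log2 width gave -0.02. The longer form of the element, with CT added, was in 37.5% of member promoters, and its share differed between start classes. Read depth is unknown, so a closed gene may lie under the detection limit of its list.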
